A study of Mus musculus with 6 samples.

Results

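Expression of 10 genes was examined in mouse chondrocytes: the lysosomal proteases cathepsin A, B, C, D, H, K, L, S and Z (Ctsa, Ctsb, Ctsc, Ctsd, Ctsh, Ctsk, Ctsl, Ctss and Ctsz) and the secreted protease inhibitor cystatin C (Cst3). They were taken by gene symbol from a list of the family, and all 10 were found among the 55487 genes of the series. The series holds 6 mRNA libraries of chondrocytes from knee cartilage of C57B/6 mice. In 3 libraries, written M-LPS EVs, the cells had received extracellular vesicles of macrophages stimulated with lipopolysaccharide (LPS), a bacterial cell wall component. In the other 3, written M-EVs, they had received vesicles of macrophages without that stimulus. Both vesicle preparations were given at 10 µg/ml of protein for 24 h, in DMEM-F12 medium with fetal bovine serum. No library of cells without vesicles was analysed here, so the comparison is between the 2 kinds of vesicle only. The age of the mice, and whether the libraries came from separate animals or cultures, were not stated in what was read here, so p-values measure the spread between these libraries, which may be technical.

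Cathepsins are made as inactive proenzymes, tagged with mannose 6-phosphate, carried to lysosomes and activated there by acid and by other proteases. Cathepsins B, C, H, K, L, S and Z are cysteine proteases, cathepsin D is an aspartic protease and cathepsin A is a serine carboxypeptidase. Cystatin C binds the active site of many cysteine cathepsins outside the cell. In joints, cathepsins released from cells, above all cathepsin K and cathepsin B, can cut type II collagen and aggrecan, the main components of cartilage matrix.

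Each library held 20239626 to 23539911 estimated counts in M-LPS EVs and 22274687 to 25712667 in M-EVs, and the 10 genes took 0.184 to 0.190% of them in M-LPS EVs and 0.176 to 0.178% in M-EVs. Chondrocyte identity was clear in both groups: Col2a1, which encodes type II collagen, averaged 29545 ± 454 TPM in M-LPS EVs and 33722 ± 271 TPM in M-EVs (SD, n = 3 each; TPM is a level scaled by transcript length and library size). The 14 chondrocyte markers examined summed to 49407 to 50513 TPM in M-LPS EVs and 60385 to 60920 TPM in M-EVs, and 13 of the 14 fell. In bulk libraries such as these, fewer cells of a type and less RNA per cell cannot be told apart. Across all 14604 genes with enough counts to test, 4614 differed at an adjusted p under 0.05 (31.6%), of which 2397 rose (16.4%) and 2217 fell (15.2%) in M-LPS EVs relative to M-EVs. All of these calls and every adjusted p for a gene below come from edgeR's quasi-likelihood test on the estimated counts, with Benjamini-Hochberg adjustment over all tested genes.

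Of the 10 genes, 4 rose in chondrocytes given M-LPS EVs: Ctsb, Ctsl, Ctsa and Ctsz. None was called lower at an adjusted p under 0.05 by edgeR or DESeq2, and 1, Ctsd, had a negative change at an unadjusted p under 0.05. The remaining members, Ctsk, Ctsh, Ctsc, Ctss and Cst3, did not pass the test. All 10 had enough counts to be tested, and in 5 of them the libraries of the groups did not overlap in level (4 higher and 1 lower in M-LPS EVs), beside 42.2% of all tested genes. The share called, 4 of 10, stands beside 31.6% of all tested genes called in either direction, and 16.4% called higher, so many genes outside the family did likewise. The changes were small: the median log2 fold change of the 10 genes was 0.13, with a range of -0.20 to 0.34, beside a median of 0.00 over all tested genes. Among all genes called higher the median log2 fold change was 0.31, and Ctsb alone of the 10 lay above it.

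**Figure D1:**
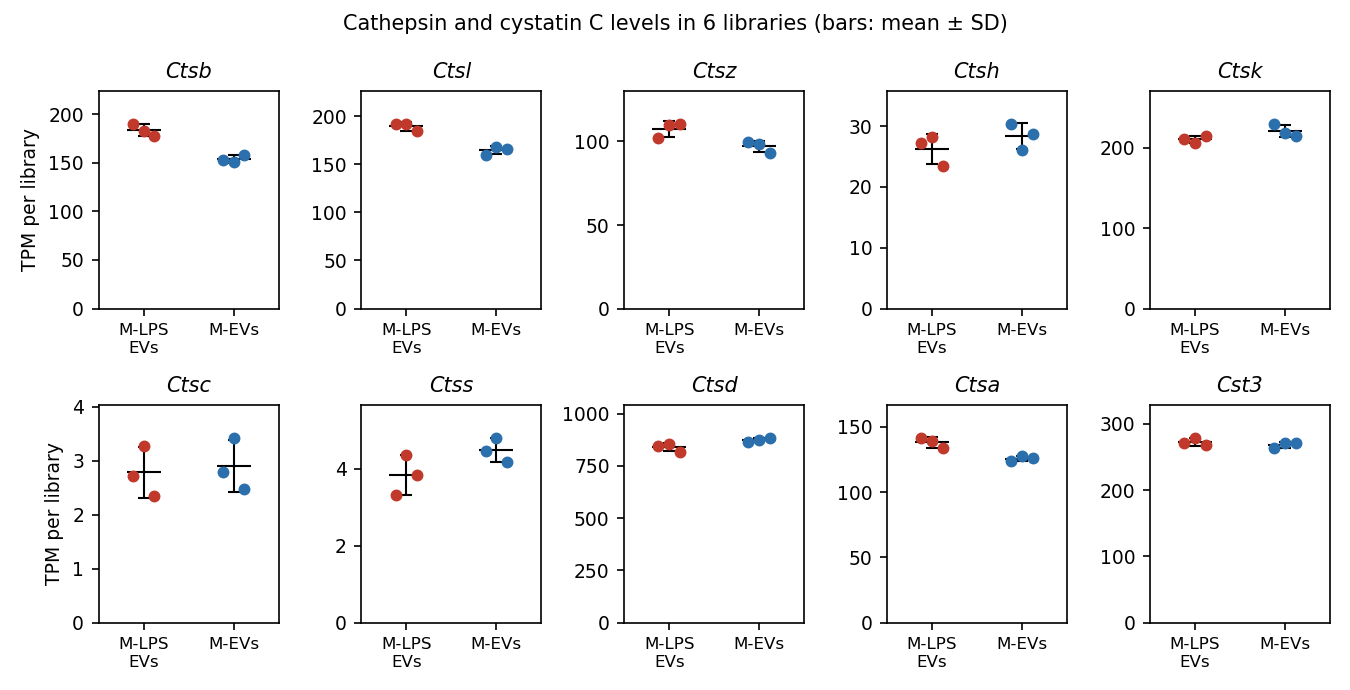
TPM of each cathepsin gene and of Cst3 in the 6 libraries, with M-LPS EVs (red) left of M-EVs (blue) in each panel; each point is a library, the wide tick is the mean and the whiskers are the SD (n = 3), and every axis starts at 0 with its own scale. The points of Ctsb, Ctsl, Ctsz and Ctsa in M-LPS EVs lie above all points in M-EVs, those of Ctsd lie below them, and those of Ctsh, Ctsk, Ctsc, Ctss and Cst3 overlap.

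The largest change among the 10 genes was in Ctsb (chr14:63122462-63145923, plus strand, GRCm38), whose product acts as an endopeptidase and as a peptidyl dipeptidase and can be secreted. Ctsb had 273, 276 and 265 CPM in the 3 M-LPS EVs libraries, against 215, 214 and 213 CPM in the 3 M-EVs libraries (CPM, counts relative to library size after scaling by TMM, the trimmed mean of M-values). The lowest M-LPS EVs library was thus well above the highest M-EVs library, and the spread within each group was small beside the gap. The log2 fold change was 0.34 (SE 0.02, 95% interval 0.30 to 0.39, adjusted p = 1.05e-11 by edgeR), a 1.27-fold higher level. When the change was tested for exceeding 1.2-fold, 7.79% of all tested genes passed, and of the members only Ctsb did.

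Ctsl (chr13:64359337-64370890, minus strand) encodes cathepsin L, a strong endopeptidase that also takes part in activating other proenzymes. Its CPM was 169, 174 and 168 in M-LPS EVs, against 141, 149 and 151 in M-EVs. The groups did not overlap, and the log2 fold change was 0.21 (SE 0.03, adjusted p = 3.45e-06 by edgeR), or 1.16-fold. Ctsz (chr2:174427493-174439039, minus strand) encodes cathepsin Z, a carboxypeptidase with an integrin-binding motif in its propeptide. It had 72.8, 78.6 and 79.1 CPM in M-LPS EVs, against 70.4, 70.1 and 66.0 CPM in M-EVs. Its lowest M-LPS EVs library lay only a little above its highest M-EVs library, and the log2 fold change of 0.16 (SE 0.04, adjusted p = 0.00303 by edgeR) missed the threshold when limma was applied to log2(TPM + 1) instead (adjusted p = 0.0521).

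Ctsk (chr3:95499256-95509362, plus strand), whose product cuts within the collagen triple helix and is the main bone-degrading enzyme of osteoclasts, did not rise with Ctsb and Ctsl. Ctsk had 159, 156 and 162 CPM in M-LPS EVs, against 172, 164 and 160 CPM in M-EVs. The ranges overlapped, and the 95% interval of the log2 fold change, -0.12 to 0.01 (estimate -0.05, SE 0.03, adjusted p = 0.163 by edgeR), left room for a rise of at most 0.01. The defining osteoclast genes Dcstamp, Ocstamp and Calcr held 1, 5 and 4 counts in all M-LPS EVs libraries together, and 2, 0 and 0 counts in all M-EVs libraries together. The 10 osteoclast markers summed to 75.3 to 79.9 TPM in M-LPS EVs and 83.4 to 91.5 TPM in M-EVs. The lower sum rests on Ckb, which averaged 49.3 TPM in M-LPS EVs and 64.5 TPM in M-EVs. Nfatc1 went the other way, with averages of 22.7 TPM in M-LPS EVs and 17.1 TPM in M-EVs. Of the 4 with enough counts, Nfatc1 rose, Ckb fell, and Acp5, the tartrate-resistant acid phosphatase, had a log2 fold change of 0.01 (adjusted p = 0.972 by edgeR).

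The cysteine cathepsins best known from immune cells were scarce. Ctss (chr3:95526786-95556403, plus strand), which trims the MHC class II invariant chain in antigen-presenting cells, had 47, 69 and 52 estimated counts in M-LPS EVs, against 75, 70 and 62 in M-EVs. Ctsc (chr7:88278085-88310888, plus strand), the dipeptidyl peptidase that activates granule proteases of leukocytes, had 83, 100 and 64 counts in M-LPS EVs, against 92, 78 and 77 in M-EVs. At this depth neither difference was detectable. The log2 fold change of Ctss was -0.20 with a 95% interval of -0.56 to 0.16 (adjusted p = 0.417 by edgeR). That of Ctsc was 0.10 with an interval of -0.22 to 0.42 (adjusted p = 0.690), and its sign turned when M-LPS EVs replicate 2 was left out or when transcript length was taken into account. The genes whose CPM profile over the 6 libraries was most like that of Ctss were Pde8b, Rps6kb2 and Tmem150a, with root mean square differences of centred log2 CPM of 0.042, 0.047 and 0.047.

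Macrophage markers moved beside these results. Of 20 macrophage markers, 11 had enough counts to test. Of these, 5 rose and 1 fell, beside 16.4% higher and 15.2% lower among all tested genes. The summed level of the 20 markers was 58.9 to 65.7 TPM in M-LPS EVs and 53.2 to 56.8 TPM in M-EVs. The sum rests on Lyz2, the lysozyme gene: the other 19 markers summed to 27.6 to 28.3 TPM in M-LPS EVs and 30.1 to 31.5 TPM in M-EVs. Mertk, which is among those 19, averaged 6.88 TPM in M-LPS EVs and 9.46 TPM in M-EVs, a gap close to that of the 19 together. None of the 20 was at 0 in every library. Adgre1 had 49, 51 and 38 counts in M-LPS EVs and 23, 16 and 13 in M-EVs, while Ptprc, the pan-leukocyte gene, held 20 counts in all M-LPS EVs libraries and 23 in all M-EVs libraries. Cybb, Cd14 and Itgam, which rose as did Lyz2 and Adgre1, held 109, 132 and 95 counts in all M-LPS EVs libraries together. In all M-EVs libraries together they held 19, 62 and 58 counts. In TPM, Cd14 and Itgam did not overlap between the groups. Cybb did, at 0.54, 0.64 and 0.83 TPM in M-LPS EVs, against 0.03, 0.07 and 1.65 TPM in M-EVs. Other markers were lower in M-LPS EVs: Mertk, a receptor for the uptake of dying cells, fell by 0.43 on the log2 scale (adjusted p = 3.92e-05 by edgeR). The complement genes C1qa, C1qb and C1qc, too scarce to test, held 2, 5 and 2 counts in all M-LPS EVs libraries together, against 37, 34 and 14 counts in all M-EVs libraries together. Csf1r and Cd68 did not pass the test (log2 fold changes 0.15 and 0.20, adjusted p = 0.684 and 0.487 by edgeR). The part of these RNAs in the cathepsin differences was not tested. The 12 fibroblast markers summed to 1440 to 1453 TPM in M-LPS EVs and 1277 to 1282 TPM in M-EVs. That sum rests on Dcn, which averaged 712 TPM in M-LPS EVs and 520 TPM in M-EVs, a gap wider than that of the 12 together. Among 11 tested, 3 were higher and 3 lower, beside 16.4% and 15.2% of all tested genes. The part of the fibroblast markers was not tested either.

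**Figure D2:**
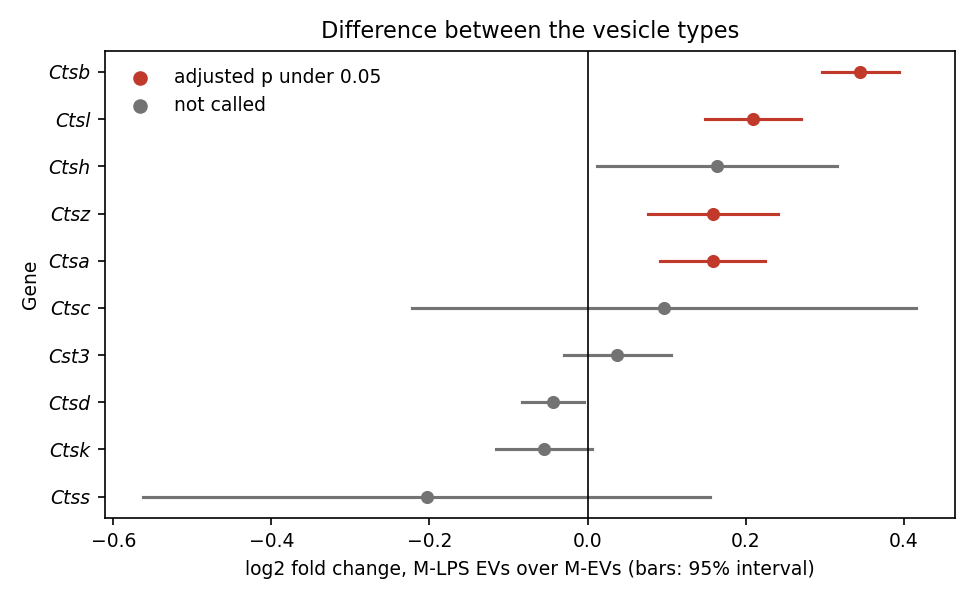
Log2 fold change of each cathepsin gene and of Cst3, M-LPS EVs over M-EVs, from edgeR's quasi-likelihood fit (x axis) by gene (y axis), with bars for the 95% interval; red marks genes with an adjusted p under 0.05. Ctsb, Ctsl, Ctsz and Ctsa are the red points, at log2 fold changes of 0.34, 0.21, 0.16 and 0.16, while the widest intervals belong to the scarce Ctss and Ctsc.

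Ctsd (chr7:142375911-142388038, minus strand), the aspartic endopeptidase, was by far the most abundant member and did not rise. Ctsd had 918, 930 and 890 CPM in M-LPS EVs, against 931, 949 and 945 CPM in M-EVs. The 2 groups did not overlap, with the highest M-LPS EVs library just under the lowest M-EVs library. Of all tested genes, 20.6% had M-LPS EVs lower without overlap. The log2 fold change was -0.04 (SE 0.02, unadjusted p = 0.0294, adjusted p = 0.0825 by edgeR). It passed the threshold without M-LPS EVs replicate 2 (adjusted p = 0.0224) and with no filter on low counts (adjusted p = 0.0402).

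Ctsa (chr2:164832873-164841032, plus strand) encodes the serine carboxypeptidase that also holds the lysosomal enzymes beta-galactosidase (Glb1) and neuraminidase 1 (Neu1) in a complex. Its CPM was 146, 147 and 135 in M-LPS EVs, against 130, 128 and 126 in M-EVs. Each M-LPS EVs library was above each M-EVs library, and the log2 fold change was 0.16 (SE 0.03, adjusted p = 0.000365 by edgeR). The partner genes, picked for this role after their values were seen, went opposite ways. Glb1 rose by 0.18 on the log2 scale (SE 0.05, adjusted p = 0.00328 by edgeR). Neu1 fell by 0.22 on the log2 scale (SE 0.06, adjusted p = 0.00957), a call lost without M-EVs replicate 1 (adjusted p = 0.0662), by DESeq2 (adjusted p = 0.0577), by limma (adjusted p = 0.0801), with the length offset (adjusted p = 0.0822) and against a 1.2-fold change (adjusted p = 1.00).

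Cst3 (chr2:148871722-148875692, minus strand), the inhibitor, did not pass the test. It had 102, 106 and 102 CPM in M-LPS EVs, against 98.8, 102 and 102 CPM in M-EVs. The ranges overlapped, and the 95% interval of its log2 fold change was -0.03 to 0.11 (estimate 0.04, SE 0.03, adjusted p = 0.425 by edgeR). The genes with the most similar profile over the 6 libraries were Rabgap1, Hectd4 and Psma5, at root mean square differences of 0.0068, 0.0070 and 0.0073 in centred log2 CPM.

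Levels per transcript length kept the same order of genes in both groups: Ctsd, Cst3, Ctsk, Ctsl, Ctsb, Ctsa, Ctsz, Ctsh, Ctss and Ctsc, from high to low. Ctsd averaged 840 ± 20.6 TPM in M-LPS EVs and 874 ± 9.27 TPM in M-EVs, while Ctsc lay between 2.35 and 3.28 TPM in M-LPS EVs and between 2.47 and 3.42 TPM in M-EVs (SD, n = 3 each, for the means). Of the neighbours in this order, only Ctsl and Ctsb overlapped, and only in M-LPS EVs, where Ctsl held 184 to 192 TPM and Ctsb 178 to 190 TPM. In M-EVs Ctsl held 160 to 168 TPM and Ctsb 151 to 158 TPM, and they stood apart. This order, and the shares and the ratio below, count all transcripts of a gene. For Ctsb these include Ctsb-202, a retained-intron form. The coding Ctsb-201 alone averaged 91.5 TPM in M-LPS EVs and 71.4 TPM in M-EVs, under the gene totals of Ctsa and Ctsz.

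The make-up of the summed cathepsin RNA differed slightly, with a smaller part held by Ctsd and a larger part by Ctsb in M-LPS EVs. Of the summed TPM of the 9 cathepsins, Ctsd held 49.3 ± 0.376% in M-LPS EVs and 52.3 ± 0.420% in M-EVs (SD, n = 3 each). Ctsb held 10.8 ± 0.255% in M-LPS EVs and 9.20 ± 0.199% in M-EVs. Neither share overlapped between the groups, while the sum of all 9 did overlap, at 1716, 1722 and 1667 TPM in M-LPS EVs, against 1667, 1672 and 1676 TPM in M-EVs. The 7 cysteine cathepsins alone summed to 729, 726 and 717 TPM in M-LPS EVs, against 679, 670 and 667 TPM in M-EVs, a mean higher by 7.75%. Cst3 RNA relative to that sum was 0.371, 0.384 and 0.374 in M-LPS EVs, against 0.388, 0.404 and 0.406 in M-EVs. All 3 M-LPS EVs ratios lay under all 3 M-EVs ratios, which is given as a description with no test, since the genes in the sum were chosen with results known.

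Ctsh (chr9:90054152-90076089, plus strand) encodes an aminopeptidase, and its transcripts differed more between the groups than its total. The gene had 343, 379 and 285 counts in M-LPS EVs, against 352, 294 and 317 in M-EVs. The total was not called, and its sign depended on the scale: the log2 fold change was 0.16 (SE 0.07, adjusted p = 0.0960 by edgeR) on counts, -0.10 (adjusted p = 0.564) with an offset for effective transcript length and -0.11 (adjusted p = 0.432) by limma on log2(TPM + 1). Without M-LPS EVs replicate 3 it was called higher (0.23, adjusted p = 0.0278 by edgeR). The 3 leading transcripts held most of the Ctsh RNA. Ctsh-201 is the full-length form, with 12 exons and a coding sequence of 999 bases. Ctsh-202 is annotated as a target of nonsense-mediated decay, the pathway that degrades RNAs with an early stop codon. Ctsh-204 is a truncated form of 8 exons. Of the other forms, Ctsh-207 reached 7.86% in M-LPS EVs replicate 2 and Ctsh-205 reached 6.45% in M-EVs replicate 2.

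**Figure D3:**
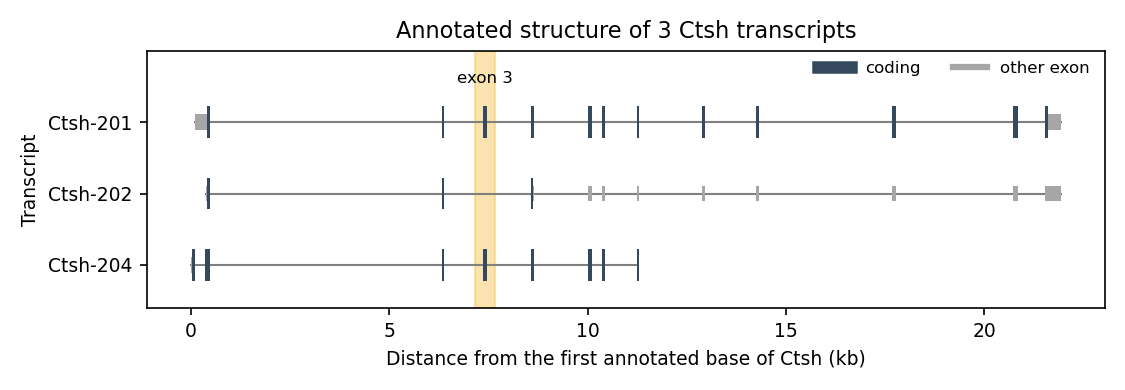
Exon map of the 3 main Ctsh transcripts on the plus strand, drawn to scale from the GENCODE annotation as distance in kb from the start of the gene (x axis), with Ctsh-201, Ctsh-202 and Ctsh-204 as rows; tall dark boxes are coding, low grey boxes are other exon sequence and lines are introns. The shaded band, drawn wider than the exon, marks exon 3, which is present in Ctsh-201 and Ctsh-204 and absent from Ctsh-202, whose coding sequence ends soon after.

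Ctsh-202 lacks exon 3, which spans 106 bases at chr9:90061519-90061624 (plus strand, GRCm38). Because 106 is not a multiple of 3, joining exon 2 to exon 4 shifts the reading frame, and a stop codon follows 6 bases into the next exon, leaving a coding sequence of 123 bases. The stretch around the junction is shown because it is where the full-length and the decay-annotated transcripts part. In Ctsh-201 the capitals mark exon 3, and in Ctsh-202 they mark the stop codon of the shifted frame. Both were read from the GENCODE M21 transcripts, with 15 bases kept on each side of exon 3 or of the junction.
Ctsh-201: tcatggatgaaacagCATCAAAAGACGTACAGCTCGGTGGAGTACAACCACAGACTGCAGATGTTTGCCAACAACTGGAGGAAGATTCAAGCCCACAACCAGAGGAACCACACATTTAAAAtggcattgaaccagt
Ctsh-202: tcatggatgaaacagtggcatTGAaccagt

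Ctsh-201 made up 39.4, 43.7 and 41.5% of Ctsh RNA in M-LPS EVs, against 11.4, 24.3 and 14.3% in M-EVs, in the percentages the authors deposited. Ctsh-202 made up 33.1, 21.5 and 30.4% in M-LPS EVs, against 41.1, 37.0 and 46.2% in M-EVs. The shares of both transcripts did not overlap between the groups, with the full-length form higher and the form without exon 3 lower in M-LPS EVs. Ctsh-204 made up 25.0, 25.0 and 20.9% in M-LPS EVs, against 43.1, 26.4 and 37.8% in M-EVs, also without overlap. Ctsh-201 was given 186, 239 and 162 counts in M-LPS EVs, against 71.3, 113 and 74.9 in M-EVs, again without overlap. The shares are parts of the same total, so they do not vary independently of each other. How often transcripts of other genes lacked overlap was not counted.

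Whether this counts as a call depended on how transcripts were combined. Of the 4 members with at least 2 transcripts holding 10% of the gene (Ctsa, Ctsb, Ctsc and Ctsh), edgeR's test of transcript usage with Simes' method called 0, beside 0.157% of the 6375 genes tested. At an unadjusted p under 0.05 edgeR's Simes test gave 1, Ctsh, whose adjusted p was 1.00. The gene-level F-test on the same fit called Ctsh (adjusted p = 0.0228), beside 0.816% of genes called. A further share was taken over the TPM of Ctsh transcripts that hold or skip exon 3, leaving out 5 that do neither. Transcripts skipping exon 3 made up 33.9, 23.8 and 35.5% of it in M-LPS EVs, against 42.1, 42.1 and 46.9% in M-EVs. The difference in means was -12.6 percentage points (two-sided exact permutation test, p = 0.1, the smallest that 3 against 3 libraries can give). On expected counts in place of TPM it was -22.3 percentage points. This split by exon 3 was chosen after the transcript values were seen, and the error of dividing 285 to 379 counts per library among overlapping transcripts was not part of either test.

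**Figure D4:**
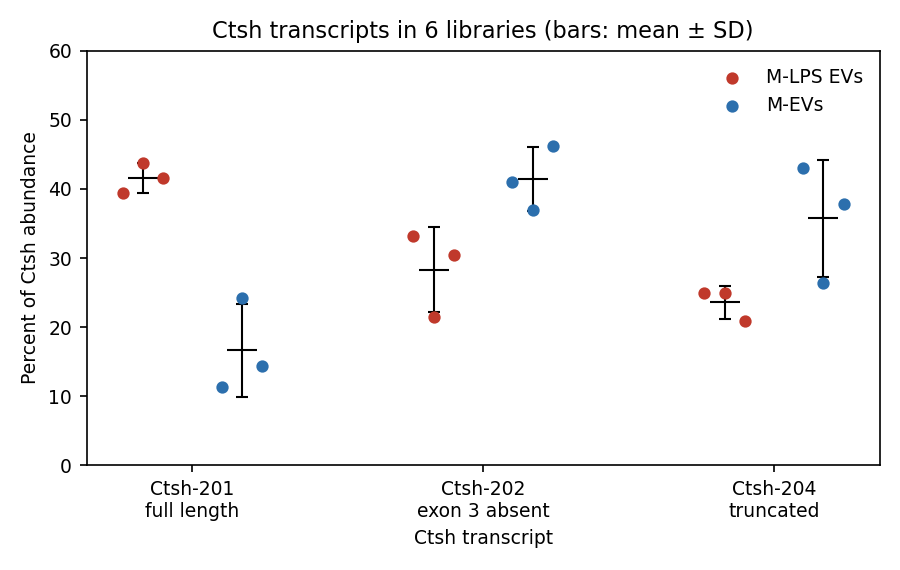
Percent of Ctsh transcript abundance (y axis) held by Ctsh-201, Ctsh-202 and Ctsh-204 (x axis) in each library, with M-LPS EVs (red) left of M-EVs (blue); points are libraries, the wide tick is the mean and the whiskers are the SD (n = 3). The full-length Ctsh-201 sits at 39.4 to 43.7% in M-LPS EVs and 11.4 to 24.3% in M-EVs, and the other forms are lower in M-LPS EVs.

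No other member was called for transcript usage by either method. Ctsb RNA was divided between its coding transcript, with 48.2, 51.0 and 50.5% in M-LPS EVs against 47.5, 47.3 and 44.6% in M-EVs, and Ctsb-202, a retained-intron form, with 51.8, 49.0 and 49.4% in M-LPS EVs against 52.5, 52.7 and 55.3% in M-EVs. The groups did not overlap, but by narrow margins, and these shares too are parts of the same total. That usage was not called by Simes' method (adjusted p = 1.00) or the F-test (adjusted p = 0.343). Ctsk and Ctsz have a lone transcript in the annotation. The leading transcripts of Ctsd and Cst3 held nearly all of their RNA. Parts of Ctsb, Ctsz and Ctsa overlap genes on the opposite strand, Fdft1, Nelfcd, and Pltp with Neurl2. The kit marks strand, but the strand setting of the counting is not given, so reads of such overlaps may be uncertain. Fdft1, at 887 to 1224 counts per library, had a log2 fold change of -0.08 (adjusted p = 0.160 by edgeR). That of Nelfcd was 0.04 (adjusted p = 0.660), that of Pltp -0.14 (adjusted p = 0.289) and that of Neurl2 0.43 (adjusted p = 0.238), all by edgeR. None of them was called, and the part of such reads in the cathepsin differences was not tested.

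Many lysosomal genes carry the CLEAR element, a promoter sequence around the palindrome CACGTG that is bound by TFEB and TFE3, transcription factors of lysosome biogenesis. RefSeq windows of 300 bases, from 250 before to 50 after each annotated start, were at hand for 8 of the 10 genes, all but Ctsb and Ctsh. CACGTG, which reads the same on both strands, was found in windows of Ctsa, Ctsd and Ctsl. Of the Ctsa windows, the one at the start of its leading transcript, Ctsa-202, held no match. The Ctsl window (chr13:64370471-64370770) lies wholly upstream of 64370306, where its leading transcript, Ctsl-201, starts. It was present in 8.09% of the 27025 genes with a window. The stretches below show 1 match for each gene in capitals, on the strand of the gene and on GRCm38.p6: Ctsa at chr2:164833741-164833772 (plus strand, position -12 of its second annotated start), Ctsd at chr7:142387900-142387945 (minus strand, position -98) and Ctsl at chr13:64370731-64370770 (minus strand, position -236). The windows of Ctsa and Ctsd each held a second match that is not printed, at position 5 and position -245. The leading transcript of Ctsd, Ctsd-202, starts at 142388038 on the minus strand. The printed Ctsd match thus lies inside the span of Ctsd-202, and the match at -245 lies upstream of that transcript. A match is a description of these letters and does not show binding.
Ctsa: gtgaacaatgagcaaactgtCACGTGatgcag
Ctsd: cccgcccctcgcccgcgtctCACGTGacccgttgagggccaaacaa
Ctsl: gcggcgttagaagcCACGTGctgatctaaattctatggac

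Of the genes with the motif, Ctsa and Ctsl rose, and Ctsd, which was not called, had a log2 fold change of -0.04. Ctsz, whose window held no match, also rose, and Ctsb, which rose most among the members, had no window. Whether the motif goes with the changes was not tested. Among 13 tested MiT/TFE factors and regulators of these factors, 3 rose and 0 fell (0 at an unadjusted p under 0.05 and 0 by DESeq2), and the median log2 fold change was 0.05. The share called, 23.1%, was below the 31.6% of all tested genes. Tfe3 rose by 0.24 on the log2 scale (SE 0.04, adjusted p = 1.40e-05 by edgeR) and Mitf by 0.58 (SE 0.13, adjusted p = 0.00130), while Tfeb, at 0.13, did not pass (adjusted p = 0.243). The Mitf call was lost by limma on TPM (adjusted p = 0.157) and with the length offset (adjusted p = 0.102), and the other gene called, Rragd, kept neither its call nor its sign on those scales.

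Of the other cathepsins and legumain, 4 of 15 had enough counts, 2 rose and 0 fell (0 at an unadjusted p under 0.05 and 0 by DESeq2), and the median log2 fold change was 0.30. The share called was 50% of only 4 genes, beside 31.6% of all tested genes. The lysosomal cysteine cathepsins F and O were the ones that rose, Ctsf by 0.38 (SE 0.09, adjusted p = 0.00122 by edgeR) and Ctso by 0.60 (SE 0.15, adjusted p = 0.00359) on the log2 scale. Legumain (Lgmn), an asparaginyl endopeptidase that processes other cathepsins, had a log2 fold change of 0.11 and did not pass (adjusted p = 0.137). In this list 10 genes, Ctse and the relatives of Ctsl known from rodent placenta, had no counts in any library.

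Of the other cystatins and related inhibitors, 7 of 25 were tested, and 14.3% of the 7 were called, beside 31.6% of all tested genes. This was 1 gene, which rose. That gene, Kng2, which encodes a kininogen, held only 39 counts over all M-LPS EVs libraries and 8 over all M-EVs libraries (log2 fold change 2.33, SE 0.53, adjusted p = 0.00103 by edgeR), and its call was lost without M-LPS EVs replicate 2. The intracellular inhibitor cystatin B (Cstb) was abundant, at 197 ± 4.23 TPM in M-LPS EVs and 195 ± 1.73 TPM in M-EVs (SD, n = 3 each), with a log2 fold change of 0.03 (adjusted p = 0.591).

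Cathepsins reach lysosomes by mannose 6-phosphate tagging and sorting, and of 15 genes of that machinery 1 rose and 4 fell (median log2 fold change 0.02). The share called, 33.3%, was near the 31.6% of all tested genes. Sort1, the sortilin receptor, had 31.1, 29.8 and 34.3 CPM in M-LPS EVs, against 43.0, 43.2 and 46.8 CPM in M-EVs, a log2 fold change of -0.49 (SE 0.05, adjusted p = 2.66e-08 by edgeR). Gga2, an adaptor at the trans-Golgi network, fell by 0.22 and Igf2r, the cation-independent mannose 6-phosphate receptor, by 0.09 on the log2 scale (adjusted p = 2.30e-05 and 0.000979). M6pr, the cation-dependent receptor, had a log2 fold change of 0.05 and did not pass (adjusted p = 0.148). Of these, only Sort1 passed the test against a 1.2-fold change.

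Of 37 soluble hydrolases and cofactors, 16 rose and 3 fell (median log2 fold change 0.08), so 51.4% were called, beside 31.6% of all tested genes. Those that rose included Npc2, a cholesterol carrier (0.25, SE 0.03, adjusted p = 4.12e-07 by edgeR), Psap, the saposin precursor (0.17, SE 0.02, adjusted p = 6.87e-07), and Gla, alpha-galactosidase A (0.61, SE 0.09, adjusted p = 1.25e-05). Hyal1, a hyaluronidase, fell by 0.50 (SE 0.08, adjusted p = 8.24e-06). Of 28 tested genes of the lysosomal membrane and its proton pump, 2 rose and 6 fell (median log2 fold change -0.03), and the share called, 28.6%, was near the 31.6% of all tested genes. Lamp2 rose by 0.14 (adjusted p = 1.77e-05 by edgeR), and the pump subunit genes Atp6v1g1 and Atp6v0c fell by 0.19 and 0.11 on the log2 scale (adjusted p = 1.27e-05 and 0.00134).

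**Figure D5:**
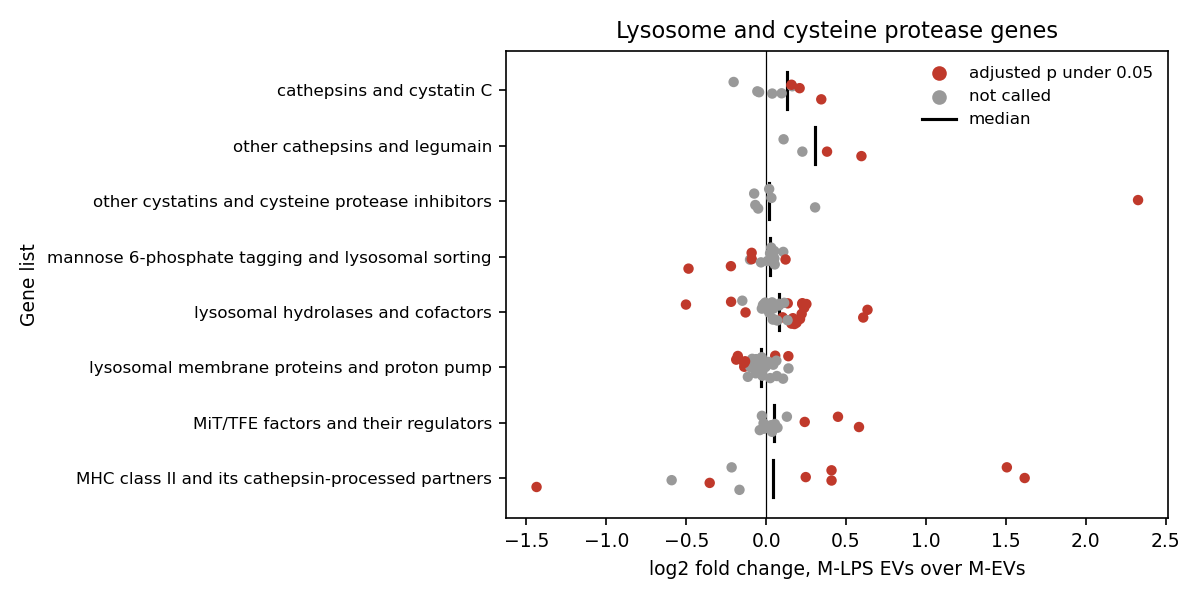
Log2 fold change, M-LPS EVs over M-EVs (x axis), of every tested gene in the cathepsin and cystatin C set and in 7 related lists (rows), with red points for genes called in either direction, grey points for genes not called and a black tick at each list's median; the vertical position within a row has no meaning. The hydrolases have 16 called higher and 3 lower, while the membrane and proton pump genes have 2 called higher and 6 lower.

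Among genes of MHC class II presentation, where cathepsins S and L cut the invariant chain, 10 of 14 were tested, 5 rose and 2 fell (median log2 fold change 0.04). The share called was 70%, beside 31.6% of all tested genes. The class II chain gene H2-Ab1 had 569, 692 and 486 counts in M-LPS EVs, against 214, 198 and 245 in M-EVs, a log2 fold change of 1.51 (SE 0.09, adjusted p = 2.44e-13 by edgeR). Cd74, which encodes the invariant chain itself, had 45, 45 and 31 counts in M-LPS EVs, against 17, 11 and 14 in M-EVs (log2 fold change 1.62, SE 0.27, adjusted p = 4.05e-05). Both were clear of overlap, as were 21.5% of all tested genes with M-LPS EVs higher, while Ctss, as given above, was not called. Ifi30, a lysosomal thiol reductase, rose by 0.41 (SE 0.07, adjusted p = 2.40e-05). H2-Eb1, at 10, 6 and 2 counts in M-LPS EVs against 23, 13 and 17 in M-EVs, fell by 1.44 on the log2 scale (adjusted p = 0.0121 by edgeR), a call lost without M-LPS EVs replicate 2 (adjusted p = 0.0503), M-LPS EVs replicate 3 (adjusted p = 0.0770) or M-EVs replicate 1 (adjusted p = 0.0654), with the length offset (adjusted p = 0.0559) and against a 1.2-fold change (adjusted p = 0.0518). H2-Aa, the partner chain of H2-Ab1, had 2 counts over all M-LPS EVs libraries and 1 over all M-EVs libraries.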

How the data were processed

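RNA of 3 M-LPS EVs and 3 M-EVs chondrocyte samples was made into TruSeq stranded mRNA libraries, per the labels' protocols. The submitters' processing notes name STAR, RSEM, DESeq2 and the build mm10. Versions, annotation and the strand setting of the counting were not stated in what was read here. The authors deposited, per transcript, an RSEM expected count (an estimated count), a TPM level and a percent of the gene's abundance held by the transcript. Transcript names, types and exons were taken from GENCODE M21 (GRCm38), in which 99.07% of the 142699 transcript identifiers and all 52 of the members were found.

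Expected counts were summed per gene and rounded. Genes were kept by filterByExpr (minimum count 10), scaled by TMM and tested with edgeR 4.0.16 in R 4.3.3 (glmQLFit, glmQLFTest, two-sided, group as the only term), and called at a Benjamini-Hochberg adjusted p under 0.05 over 14604 genes. Transcript usage was tested with diffSpliceDGE over transcripts that held 10% or more of a gene's TPM. TPM levels were summed per gene with no test. Both procedures were tested on simulated data. Alternatives were DESeq2 1.42.0, limma 3.58.1 on log2(TPM + 1), other scaling and filters, an effective length offset, a 1.2-fold test, a replicate block and leaving out each library. Within groups, libraries differed beyond sampling noise (chi-square per degree of freedom 1.683 to 2.684), so no pair was treated as a repeat deposit of 1 library. This does not show that they came from separate cultures.

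The 10 members and the 7 lists were chosen with earlier results of these data known. The text names the 10 members, up to 4 genes of each list with the smallest p, the 3 genes most like Ctss and Cst3, and markers. Tfeb, M6pr, Glb1, Neu1, H2-Eb1 and H2-Aa were named for their roles after their values were seen.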

Additional observations from a re-analysis of the deposited data

How the results depend on the processing

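The calls of the 4 members were stable to most settings: over 14 alternatives Ctsb was called in 14, Ctsa and Ctsl in 13 and Ctsz in 12. Leaving out each library in turn gave 4 to 5 members called. Against a change of at least 1.2-fold, 1 member was called, and of all genes 1137 (760 higher, 377 lower). That test also lowered the calls in other cathepsins to 0 (2 at an unadjusted p under 0.05, and 2 called by DESeq2), mannose 6-phosphate sorting to 1, hydrolases to 3, membrane and proton pump to 0 (0 at an unadjusted p under 0.05, and 8 called by edgeR without the fold threshold), MiT/TFE to 1 and MHC class II to 2. By limma on log2(TPM + 1), 2622 genes were called (1280 higher, 1342 lower), with 1 in other cathepsins, 10 in hydrolases, 5 in membrane and proton pump, 1 in MiT/TFE and 4 in MHC class II. With the effective length offset, 2867 genes were called (1539 higher, 1328 lower), with 12, 5, 1 and 4 in the last 4 of these lists. The cause was not tested. Without the filter on low counts, 2 other cystatins were called. With a mean count of at least 50, which removes Kng2, 0 were called (1 at an unadjusted p under 0.05, and 1 by DESeq2 at the usual filter). Without single libraries, other cystatins gave 0 to 1 call and MHC class II 4 to 7, the lowest without M-LPS EVs replicate 2 and replicate 3 of that group in turn. By the F-test, transcript usage called 1 member, Ctsh (adjusted p = 0.0228). Rescaling TPM to protein-coding nuclear genes set the sum of the 9 cathepsins at 1943 in M-LPS EVs and 1919 in M-EVs, and that of the 7 cysteine cathepsins at 827 in M-LPS EVs and 772 in M-EVs. The exon 3 difference of Ctsh, with alternatives added after seeing the data, was -14.9 to -9.02 percentage points of TPM without single libraries, and -22.3 on expected counts with all 6.

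Log2 fold changes turned sign for Ctsc (-0.00035 without M-LPS EVs replicate 2, within a range of up to 0.21 without single libraries, -0.043 by limma and -0.029 with the length offset), Ctsh (-0.11 by limma, -0.10 with the length offset), Serpinb6a (-0.0082 without M-LPS EVs replicate 1, up to 0.038 without others) and Rragd (-0.039 by limma and -0.055 with the length offset); none of these reversed values passed its test. Depth limits Ctss and Ctsc, with 47 to 100 counts per library. The replicate numbers are not stated to pair libraries, and same-numbered libraries did not deviate together (correlations -0.054, -0.059 and 0.023). With the replicate number as a block, 4519 genes and 4 members were called, and Rragd was not (adjusted p = 0.0529).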
